A study of Mus musculus with 10 samples.

Results

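MHC class II molecules are cell-surface dimers of an alpha and a beta chain that show peptides from endosomes to CD4+ T cells. The genes described here are those of the chains of the classical molecules A and E (H2-Aa, H2-Ab1 and H2-Eb1), of the invariant chain (Cd74), of the master transcription regulator of the class (Ciita), and of the peptide-exchange factor H2-M (H2-DMa and H2-DMb1). The cells were mouse prostate luminal epithelium isolated by sorting, and the genes were read from rows of the array table that list exactly 1 gene symbol. Of the 7 named genes, 6 had such a row, out of 30142 genes measured in this way. The Cd74 row also lists a microRNA symbol, so Cd74 was not analysed here as a gene.

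All mice carried Hoxb13-rtTA and TetO-H2BGFP, a transactivator driven by the prostate homeobox gene Hoxb13 and a histone-bound green fluorescent protein that it switches on, and all drank doxycycline at 2 mg/ml for 1 week before death. Intact mice were not treated further (n = 3 arrays, age not given in the labels). Castrated mice lost both testes at 12 weeks of age and their prostates regressed for 6 weeks (n = 3). Regenerated mice were also castrated at 12 weeks, with 6 weeks of regression, and then carried testosterone implants for 4 weeks (n = 4). Cells were sorted as GFP+ and CD24+ with intermediate CD49f, and cells that stained for CD45, for CD11b or for the macrophage antigen encoded by Adgre1 were left out. Arrays of a group are described as biological replicates. Pooling of animals is neither stated nor denied, and the p-values cover only the spread among these samples.

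In antigen-presenting leukocytes, class II genes are switched on by Ciita, which binds no DNA itself but docks on a promoter complex of RFX, CREB and NF-Y factors. In epithelial cells the same genes are usually low and can be induced by interferon gamma through Irf1 and Ciita. The invariant chain guides new dimers to endosomes, where cathepsins trim it and H2-M loads the peptide.

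Values are log2 RMA intensities, in which a step of 1 is a factor of 2, and 3 of the 6 genes were not above the array's background in every array. The 23 background control rows, which match no transcript, had a median of 3.03 over the 10 arrays, a 95th percentile of 4.76 (called the background limit here) and a highest value of 6.40. Their level depended on base composition. The rows with 3 and 4 G or C bases averaged 5.12 and 4.82, that with 5 averaged 4.22 and that with 15 averaged 2.35. The limit was not matched to the probes of each gene, so a value under it does not show that a transcript was absent. Of all genes, 51.6% had their means in all 3 groups at or under the background limit. No sequencing depth exists for arrays, and their number limits the precision. On the first principal component of all genes, regenerated replicate 4 lay at 3.0, between the other regenerated arrays (-31.0 to -23.2) and the castrated arrays (64.1 to 75.5). The sorted cells had high levels of epithelial genes in every array, with keratin gene Krt8 at 14.73 to 17.52 and the adhesion gene Epcam at 13.85 to 14.71. The genes behind the sort itself differed between groups. Hoxb13, whose promoter drives the sorted GFP, read 10.19 to 10.54 in intact, 7.54 to 7.93 in castrated and 8.26 to 10.27 in regenerated arrays, a fall of 2.65 ± 0.42 log2 after castration (limma with Benjamini-Hochberg adjusted p = 0.00416). Cd24a, which encodes the sort marker CD24, rose by 1.72 ± 0.27 after castration (0.00358). The part of these differences in the class II results was not tested.

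Promoter windows are shown because class II promoters carry a conserved pair of boxes, X and Y, that RFX and NF-Y bind. Of the 6 genes, 4 were matched by symbol to the RefSeq promoter table of GRCm38.p6 (250 bases before to 50 after a start site), and H2-Ab1 and Ciita were not in it. The windows were searched on both strands for an X core, CTNGNAAC, and a Y core, GATTGG, letters that were chosen after these windows had been read. The cores do not overlap each other. An X core followed by a Y core on the same strand, with 10 to 35 bases between them, was present in H2-Aa (chr17:34287774-34288073, minus strand), H2-Eb1 (chr17:34305617-34305916, plus strand) and H2-DMb1 (chr17:34152941-34153240, plus strand). The windows are written 5′ to 3′ along the gene, and capitals mark each match to an X or Y core.
H2-Aa: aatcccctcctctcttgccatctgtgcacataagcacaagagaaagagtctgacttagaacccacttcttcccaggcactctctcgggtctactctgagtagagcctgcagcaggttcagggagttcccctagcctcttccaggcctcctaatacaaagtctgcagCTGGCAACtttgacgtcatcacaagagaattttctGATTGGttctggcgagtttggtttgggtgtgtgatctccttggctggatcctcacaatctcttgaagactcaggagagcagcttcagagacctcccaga
H2-Eb1: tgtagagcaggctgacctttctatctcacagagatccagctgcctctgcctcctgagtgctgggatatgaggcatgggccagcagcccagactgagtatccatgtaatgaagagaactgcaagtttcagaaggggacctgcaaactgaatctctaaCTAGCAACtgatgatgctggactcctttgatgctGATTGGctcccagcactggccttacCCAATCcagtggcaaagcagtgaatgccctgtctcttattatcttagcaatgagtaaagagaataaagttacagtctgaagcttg
H2-DMb1: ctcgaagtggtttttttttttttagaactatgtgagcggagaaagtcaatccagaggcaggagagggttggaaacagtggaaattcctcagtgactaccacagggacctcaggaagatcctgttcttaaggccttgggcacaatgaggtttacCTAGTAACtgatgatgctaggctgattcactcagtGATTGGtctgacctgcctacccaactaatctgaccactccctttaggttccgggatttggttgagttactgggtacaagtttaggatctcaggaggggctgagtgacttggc
The gaps between the cores were 27, 26 and 27 bases in H2-Aa, H2-Eb1 and H2-DMb1, and H2-Eb1 has another Y match on the opposite strand. Over all 32851 promoter windows, 13.2% hold an X core, 16.1% a Y core and 0.116% (38 windows) the spaced pair. The windows of H2-DMa at its 2 listed starts hold no X core. Of 4 other class II chain genes with a window, the pair was found in H2-Ob, which encodes the beta chain of the H2-M inhibitor H2-O. Its stretch (chr17:34238807-34238860, plus strand) is shown for comparison, with the same use of capitals.
H2-Ob: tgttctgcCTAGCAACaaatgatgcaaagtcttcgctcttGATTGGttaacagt
No window of the 10 class I presentation genes with one held the pair. A match is a run of letters and not a measured binding site.

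The first question is what castration did to class II transcripts in these cells. The 3 classical chain genes H2-Aa, H2-Ab1 and H2-Eb1 rose by 0.72 to 1.37 log2, and H2-DMa, H2-DMb1 and Ciita did not pass the test. That is 3 of 6 genes higher and 0 lower, where 4.82% of all genes were called higher in castrated arrays, 3.19% lower and 8.01% either way (limma, Benjamini-Hochberg adjusted p under 0.05 over 30142 genes). The median difference of the 6 genes was 0.53 log2, against 0.04 for all genes.

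H2-Aa, the alpha chain of the A molecule (transcript cluster TC1700001905.mm.1), read 4.21, 4.01 and 4.41 in intact replicates 1 to 3 and 5.93, 5.67 and 5.14 in castrated replicates 1 to 3. Every castrated array was above every intact array, and the intact arrays were all under the background limit. The means were 4.21 ± 0.20 (SD, n = 3) and 5.58 ± 0.40 (n = 3), a rise of 1.37 ± 0.23 log2 (SE, limma adjusted p = 0.0055). H2-Aa was called in each of the 21 alternative fits that hold it (range of the rise 0.81 to 1.59, adjusted p = 0.000697 to 0.0299). Because its intact level was under the background limit, the size of the rise depends on where that floor is set. The smallest value came with all values raised to the background limit.

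H2-Ab1, the partner beta chain (TC1700002781.mm.1), was above the background limit in all 10 arrays. It read 5.63, 5.44 and 5.81 in intact and 7.30, 6.73 and 6.57 in castrated arrays, again without overlap. It rose from 5.63 ± 0.19 (SD, n = 3) to 6.87 ± 0.38 (n = 3), by 1.24 ± 0.28 log2 (limma adjusted p = 0.0215). Fits that left out 1 array gave rises of 1.02 to 1.39. The adjusted p was 0.0796 and 0.089 after removal of intact replicate 1 or 2, and 0.069 and 0.0515 after removal of castrated replicate 1 or 2, which ended the call.

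H2-Eb1, the beta chain of the E molecule (TC1700002782.mm.1), read 3.83, 3.99 and 3.85 in intact and 4.56, 4.97 and 4.29 in castrated arrays. The groups did not overlap, yet only castrated replicate 2 was above the background limit. The rise was 0.72 ± 0.18 log2 (limma adjusted p = 0.0377), and it was called in 8 of 21 alternative fits. With values raised to the background limit, the difference was 0.07 (adjusted p = 0.447). It was also uncalled without the trend (0.0532), with every non-control row tested (0.0717), and with medians centred (0.0924) or quantile normalization (0.0754). Removal of intact replicate 1, 2 or 3 also ended the call (0.133, 0.0844 and 0.0944), as did that of castrated replicate 1 or 2 (0.0794 and 0.115) and of regenerated replicate 1 or 3 (0.0523 and 0.0539). Its alpha partner H2-Ea read 3.74, 3.74 and 3.76 in intact arrays and 4.37, 4.36 and 3.96 after castration, all under the background limit (0.48 ± 0.15 log2, limma adjusted p = 0.0772).

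Ciita (TC1600000116.mm.1) lay under the background limit in all 10 arrays. It read 3.71, 3.72 and 3.73 in intact and 3.85, 3.92 and 3.82 in castrated arrays. The arrays did not overlap, and the difference was 0.14 ± 0.06 log2 (95% interval 0.01 to 0.28, limma adjusted p = 0.211). The groups of arrays were thus separate for 4 of the 6 genes, each higher in castrated arrays, where 17.4% of all genes were, with 11.5% separate and lower and 28.9% separate either way.

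The genes of the peptide loader varied more among arrays of a group. H2-DMa (TC1700000618.mm.1) read 6.21, 6.53 and 6.41 in intact and 6.63, 7.59 and 5.93 in castrated arrays, so castrated replicates lay on both sides of the intact ones. The difference was 0.34 ± 0.36 log2 (95% interval -0.46 to 1.13, limma adjusted p = 0.678). H2-DMb1 (TC1700002780.mm.1) read 6.77, 6.09 and 8.02 in intact and 7.05, 6.97 and 6.26 in castrated arrays, with a difference of -0.20 ± 0.57 log2 (95% interval -1.46 to 1.06, adjusted p = 0.899). The interval leaves room for a change of 1 log2 in either direction. Both genes were above the background limit in all 10 arrays. The related gene H2-DMb2 followed H2-DMb1 closely across arrays (Pearson r = 0.984, n = 10), and whether the probes of these related genes read each other's transcript was not tested.

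**Figure D1:**
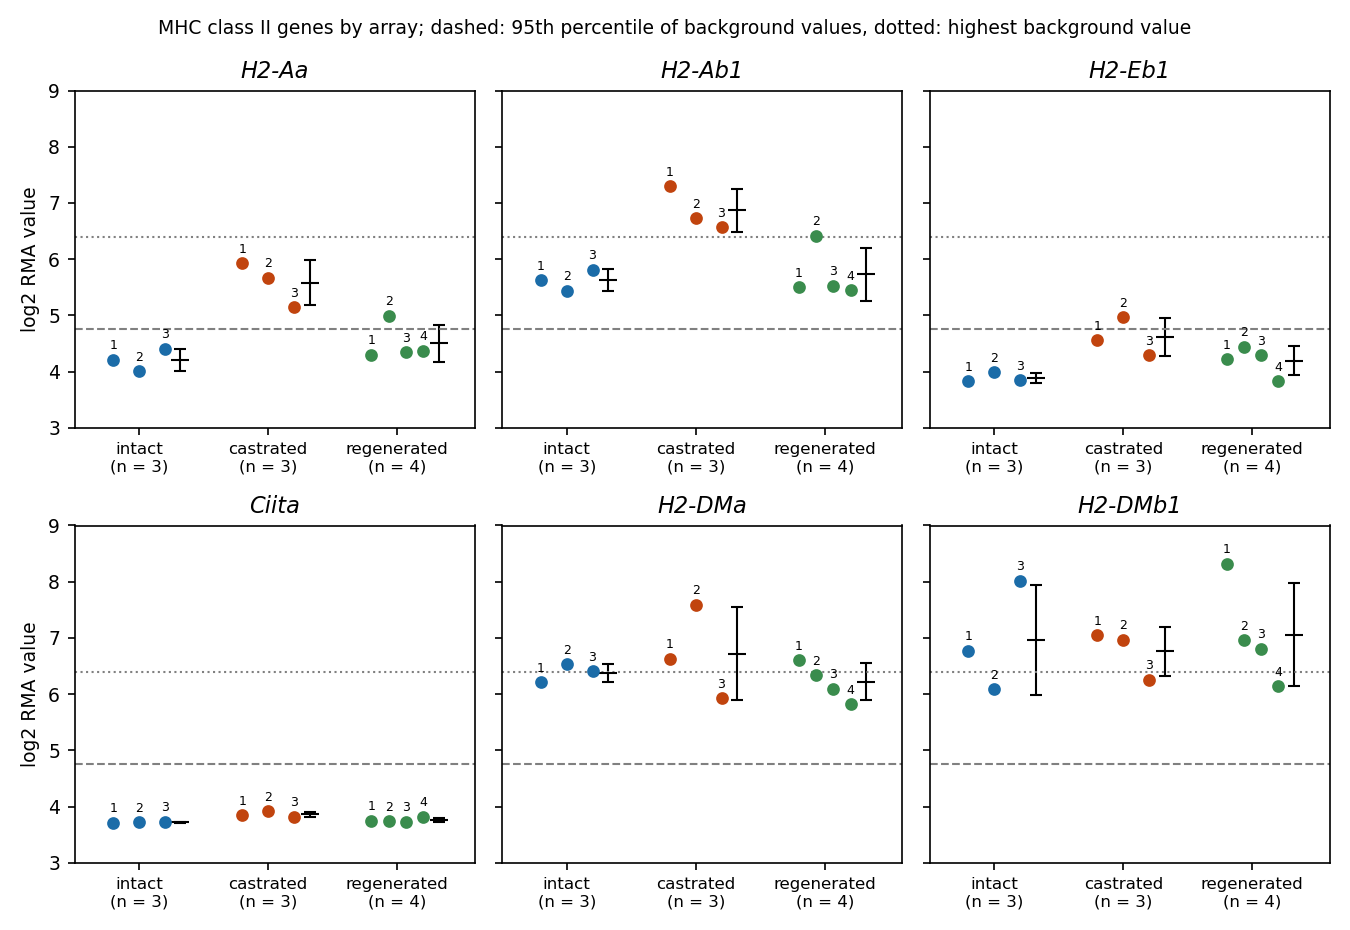
Log2 RMA value (vertical axis) of the 6 class II genes in each array of the 3 groups (horizontal axis), with replicate numbers at the points and mean ± SD as black bars. H2-Aa, H2-Ab1 and H2-Eb1 have their highest group mean in castrated arrays, and for H2-Eb1 the castrated and regenerated arrays overlap. Ciita lies under the dashed background limit of 4.76 in all 10 arrays, and H2-DMb1 spreads from 6.09 to 8.02 within intact arrays.

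The next question is how the genes stood after testosterone was given back. H2-Aa and H2-Ab1 fell, and the other 4 genes did not pass. That is 2 of 6 lower and 0 higher, where 3.01% of all genes were called lower in regenerated than in castrated arrays, 1.97% higher and 4.98% either way (limma, adjusted p under 0.05). The arrays of the groups were separate and lower for the same 2 genes, where 9.51% of all genes were, with 6.53% separate and higher and 16.0% either way. The median difference was -0.46 log2, against -0.01 for all genes. This comparison uses the same castrated arrays as the first one. There was no castrated group of equal age that went without the implant, so testosterone and the longer time since castration cannot be told apart.

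H2-Aa read 4.30, 4.99, 4.34 and 4.37 in regenerated replicates 1 to 4, all below the lowest castrated value of 5.14. It fell by 1.08 ± 0.22 log2 to 4.50 ± 0.33 (SD, n = 4; limma adjusted p = 0.0181). Removal of castrated replicate 1 or 2 ended the call (adjusted p = 0.0639 and 0.072), as did removal of regenerated replicate 3 (0.0529) and a fit of the castrated and regenerated arrays alone (0.0507).

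H2-Ab1 read 5.50, 6.42, 5.53 and 5.45, below the lowest castrated value of 6.57 in every array. It fell by 1.14 ± 0.26 log2 to 5.73 ± 0.47 (SD, n = 4; limma adjusted p = 0.0322), and 11 of 22 alternative fits called it. Without castrated replicate 1, castrated replicate 2, regenerated replicate 1, regenerated replicate 3 or regenerated replicate 4 its adjusted p was 0.105, 0.0796, 0.0708, 0.0843 and 0.0525. Without intact replicate 1 or 2 it was 0.055 and 0.0521, and in a fit of the castrated and regenerated arrays alone 0.0801. With every non-control row tested it was 0.0615, and with array medians centred 0.0521. Regenerated replicate 2 held the highest value of its group for H2-Aa, H2-Ab1 and H2-Eb1.

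H2-Eb1 read 4.22, 4.44, 4.29 and 3.83 in regenerated arrays and overlapped the castrated arrays (-0.41 ± 0.17 log2, limma adjusted p = 0.223). Ciita read 3.75, 3.74, 3.73 and 3.82, a difference of -0.10 ± 0.06 log2 (95% interval -0.23 to 0.02, adjusted p = 0.37). H2-DMa read 6.60, 6.34, 6.10 and 5.82 (-0.50 ± 0.33 log2, 95% interval -1.24 to 0.24). H2-DMb1 read 8.32, 6.96, 6.81 and 6.14 (0.30 ± 0.53 log2, 95% interval -0.88 to 1.48). The latter 2 genes overlapped the castrated arrays, and their intervals include 0.

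Between regenerated and intact arrays limma called 0 of the 6 genes, and 0 had an unadjusted p under 0.05. Few genes were called at all in this comparison (0.0365%, of which 0.0332% higher and 0.00332% lower in regenerated arrays). The differences and their 95% intervals were 0.29 log2 (-0.18 to 0.77) for H2-Aa, 0.10 (-0.47 to 0.67) for H2-Ab1 and 0.31 (-0.07 to 0.68) for H2-Eb1. Equal levels were therefore not shown. All 6 genes overlapped between the groups. Of all genes 9.65% did not (6.42% higher and 3.23% lower in regenerated arrays), and 0 of 6 is near that share. The order of the group means was castrated, regenerated, intact for H2-Aa, H2-Ab1, H2-Eb1 and Ciita, and the regenerated and intact groups did not differ beyond their spread. For H2-Eb1 and Ciita the castrated and regenerated arrays overlapped as well (limma adjusted p = 0.223 and 0.37). For H2-DMa it was castrated, intact, regenerated and for H2-DMb1 regenerated, intact, castrated, with no neighbours that differed beyond their spread.

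**Figure D2:**
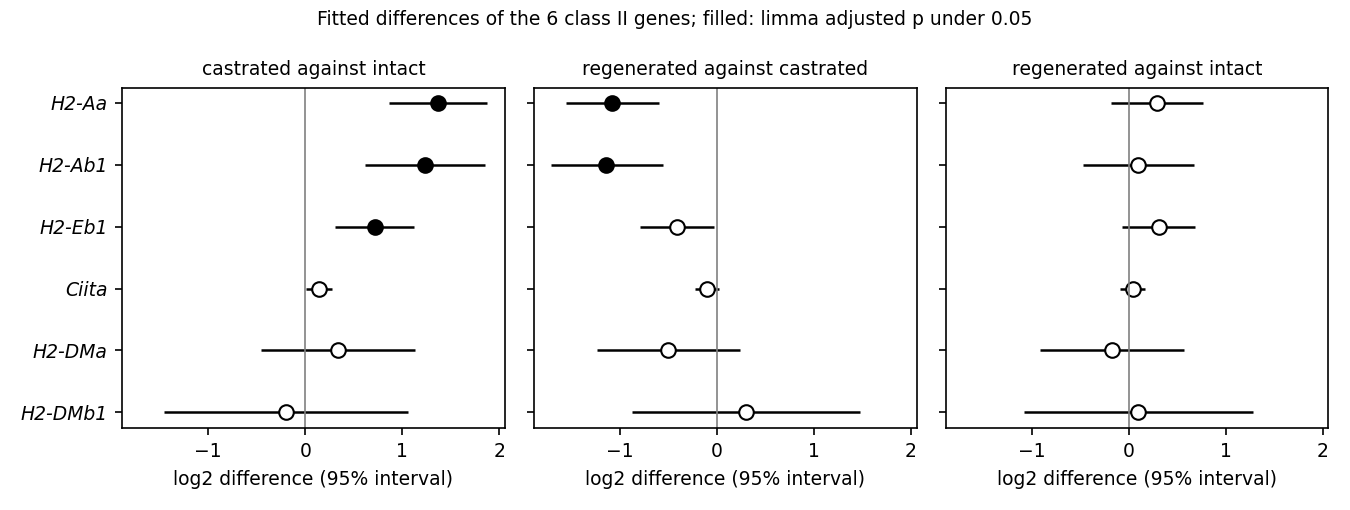
Fitted log2 difference of each class II gene with its 95% interval (horizontal axis) in the 3 comparisons; filled points have a limma adjusted p under 0.05. The 3 classical chain genes lie above 0 in castrated against intact arrays, H2-Aa and H2-Ab1 lie below 0 in regenerated against castrated arrays, and no point is filled in regenerated against intact arrays.

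The genes did not vary as a single block. H2-Aa and H2-Ab1 ran together over the 10 arrays (Pearson r = 0.973) and also after each group's mean had been taken out (r = 0.929). H2-Eb1 followed them over all arrays (r = 0.82 and 0.745) but less after the group means were taken out (0.481 and 0.364), when it ran with H2-DMa (0.857). H2-DMb1 had r = -0.001 with H2-Aa. These are descriptions over 10 arrays that share their groups.

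Genes whose pattern was most like that of a member were sought by Pearson r over the 10 arrays among 2636 protein-coding genes that varied and rose above background. For H2-Aa they were Tmem40 (r = 0.975), the cell polarity gene Pard6b (0.973) and the tropomyosin gene Tpm1 (0.97). For H2-Ab1 they were Pard6b again (0.965), Net1 (0.952) and the planar polarity gene Vangl1 (0.946). H2-Eb1 was most like Gins1, of the replication helicase (0.945), followed by Fam174c (0.913) and Tbce (0.902). Ciita was most like the channel gene Trpm3 (0.989), the methyltransferase gene Inmt (0.985) and Btc, a ligand of the EGF receptor (0.983), while its own range was 3.71 to 3.92. H2-DMa had no r above 0.796 (Cnbp, then Rccd1 and Mid1, both 0.793). H2-DMb1 was most like the aldo-keto reductase genes Akr1c13 (0.917) and Akr1c12 (0.915) and the mannosidase gene Man2b2 (0.914).

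The other class II chain genes gave no calls in the fit of all arrays. Of 5 measured (H2-Oa, H2-Ob, H2-Eb2, H2-DMb2 and H2-Ea), 0 passed limma's test between castrated and intact arrays, and 1 (H2-Ea) had an unadjusted p under 0.05. H2-Ea was called higher in castrated arrays with array weights (adjusted p = 0.0198), with only these groups fitted (0.0479) and without castrated replicate 3 (0.0411). H2-Ob, whose promoter holds the X and Y pair, read 3.80 to 4.04 over all arrays, under the background limit. H2-Eb2 read 3.66 to 4.07, and its difference between regenerated and intact arrays was -0.12 ± 0.08 log2. H2-DMb2, above the limit in every array, differed by -0.09 ± 0.35 log2 between castrated and intact arrays and by 0.11 ± 0.33 log2 between regenerated and castrated arrays.

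Factors that bind class II promoters were above the background limit in every array and gave no calls either. Limma called 0 of 7 between castrated and intact arrays, with 0 at an unadjusted p under 0.05, and 0 of 7 between regenerated and castrated arrays, with 1. The RFX subunit gene Rfx5 averaged 6.13 among intact arrays against 5.74 after castration (-0.40 ± 0.22 log2, limma adjusted p = 0.361), and Rfxank 8.35 and 8.75 (0.40 ± 0.29). Nfya, a subunit of the Y box factor NF-Y, differed by -0.35 ± 0.15 between regenerated and castrated arrays (limma adjusted p = 0.235), and Nfyc differed by -0.18 ± 0.22. Between regenerated and intact arrays Creb1 differed by -0.46 ± 0.27.

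Along the route from interferon gamma to Ciita, 1 of 10 measured genes rose in castrated arrays and 0 fell. Of all genes 4.82% were called higher and 3.19% lower, so 1 call does not set this list apart. The gene called was Irf1, an interferon-induced transcription factor, at 6.33, 6.30 and 5.94 in intact arrays. In castrated arrays it read 7.07, 7.41 and 7.46 (1.12 ± 0.20 log2, limma adjusted p = 0.00697). In regenerated arrays it read 6.15, 6.57, 6.54 and 6.09, and it fell by 0.98 ± 0.19 log2 (adjusted p = 0.0138). Castrated arrays lay above both other groups. Irf1 has more than 1 row, and on the row of lower mean the differences were 0.27 (adjusted p = 0.265) and -0.29 (0.204). The fall lost its call without castrated replicate 2 (0.0604) or castrated replicate 3 (0.0543). Between regenerated and intact arrays the receptor gene Ifngr1 differed by 0.65 ± 0.39 log2 and the kinase gene Jak1 by -0.64 ± 0.26, neither of which passed.

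Endosomal processing genes went both ways after castration, with 2 of 11 higher and 1 lower, against 4.82% and 3.19% of all genes. Ctss, the cathepsin that makes the last cut of the invariant chain, rose from 5.81 ± 0.46 to 7.79 ± 0.43 (1.97 ± 0.40 log2, limma adjusted p = 0.014), and its call ended without intact replicate 1 (0.0632) or intact replicate 2 (0.064). Cst3, the cathepsin inhibitor cystatin C, rose by 1.30 ± 0.20. Sppl2a, the membrane protease that clears the remaining stub of the invariant chain, fell by 2.48 ± 0.45. In regenerated against castrated arrays 0 of 11 were called and 4 had an unadjusted p under 0.05. The largest differences there were 1.49 ± 0.57 for Ctse and -1.45 ± 0.40 for Ctsh. Ctse read 8.62 in regenerated replicate 4 and 5.75 to 6.10 in the other regenerated arrays, and without replicate 4 its difference was 0.83 (limma adjusted p = 0.0265). Ctsh was called with array weights (0.046), with only genes above the background limit (0.035) and with values raised to that limit (0.0471). Cst3 was the only gene of these lists that was called between regenerated and intact arrays, at 1.45 ± 0.18 log2 (adjusted p = 0.0477). That call ended after removal of intact replicate 1, 2 or 3 (0.274, 0.277 and 0.0516), castrated replicate 1, 2 or 3 (0.102, 0.09 and 0.0744) or regenerated replicate 2 or 3 (0.165 and 0.134).

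Of 6 genes of class II turnover and surface partners, 1 rose after castration, the tetraspanin gene Cd9 (1.37 ± 0.26 log2, limma adjusted p = 0.0113, and 0.063 without intact replicate 1). With 4.82% of all genes called higher, 1 call does not set this list apart. In regenerated against castrated arrays 0 of 6 were called and 1 had an unadjusted p under 0.05, with Cd9 at -0.83 ± 0.25 (adjusted p = 0.0905) and the tetraspanin gene Cd63 at -0.39 ± 0.24. Between regenerated and intact arrays Cd9 differed by 0.54 ± 0.25 and Tmem127 by -0.33 ± 0.34.

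Costimulation genes, whose products act beside the peptide on the T cell, had 4 of 8 higher after castration and the same 4 lower after testosterone. Of all genes 4.82% were called higher in the first comparison and 3.01% lower in the second. The inhibitory ligand gene Vtcn1 rose by 6.99 ± 0.29 log2 and fell by 5.26 ± 0.27. The adhesion gene Icam1 rose by 1.75 ± 0.27 and fell by 1.52 ± 0.25. Cd274, the gene of PD-L1, rose from 4.14 to 4.78 and fell to 4.10, levels at or near the background limit, and with values raised to that limit the differences were 0.06 and -0.06 and uncalled. Cd40 stayed under the limit at 4.04, 4.35 and 4.07, with limma adjusted p = 0.0254 for the rise and 0.0428 for the fall. The rise lost its call after removal of any intact array (0.0914, 0.0785 and 0.0717 for replicates 1 to 3) or of castrated replicate 2 or 3 (0.077 and 0.0799). The fall lost it after removal of any single array except castrated replicate 1, with adjusted p = 0.0601 to 0.129. Cd80 and Cd86, the classical costimulators of antigen-presenting cells, were not called, and both stayed under the background limit in every array. Between regenerated and intact arrays Vtcn1 differed by 1.73 ± 0.27 (adjusted p = 0.0885) and Icosl by -0.71 ± 0.37.

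MHC class I presentation genes served as the nearest comparison, and 4 of 11 rose and 1 fell after castration. Of all genes 4.82% rose and 3.19% fell. The immunoproteasome subunit genes Psmb10, Psmb8 and Psmb9 rose by 3.50 ± 0.34, 1.97 ± 0.26 and 1.38 ± 0.27 log2, and the chaperone gene Calr fell by 1.82 ± 0.31. After testosterone 3 fell and 2 rose, with Psmb10, Psmb8 and Psmb9 down by 2.47, 1.65 and 1.10 and Calr up by 2.68. Of all genes 3.01% fell and 1.97% rose. Against intact arrays Psmb10 differed by 1.03 ± 0.32 and Calr by 0.85 ± 0.29, neither of which passed. The call of Psmb9 ended without intact replicate 1 (0.066) or intact replicate 2 (0.0534) in the first comparison, and in the second without intact replicate 2 (0.0612), castrated replicate 2 or 3 (0.13 and 0.115) or regenerated replicate 2, 3 or 4 (0.0998, 0.0879 and 0.0521). Nlrc5, the class I counterpart of Ciita, had no row under a single symbol and was not analysed here. Whether the class II genes changed by a different amount than the class I genes was not tested.

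**Figure D3:**
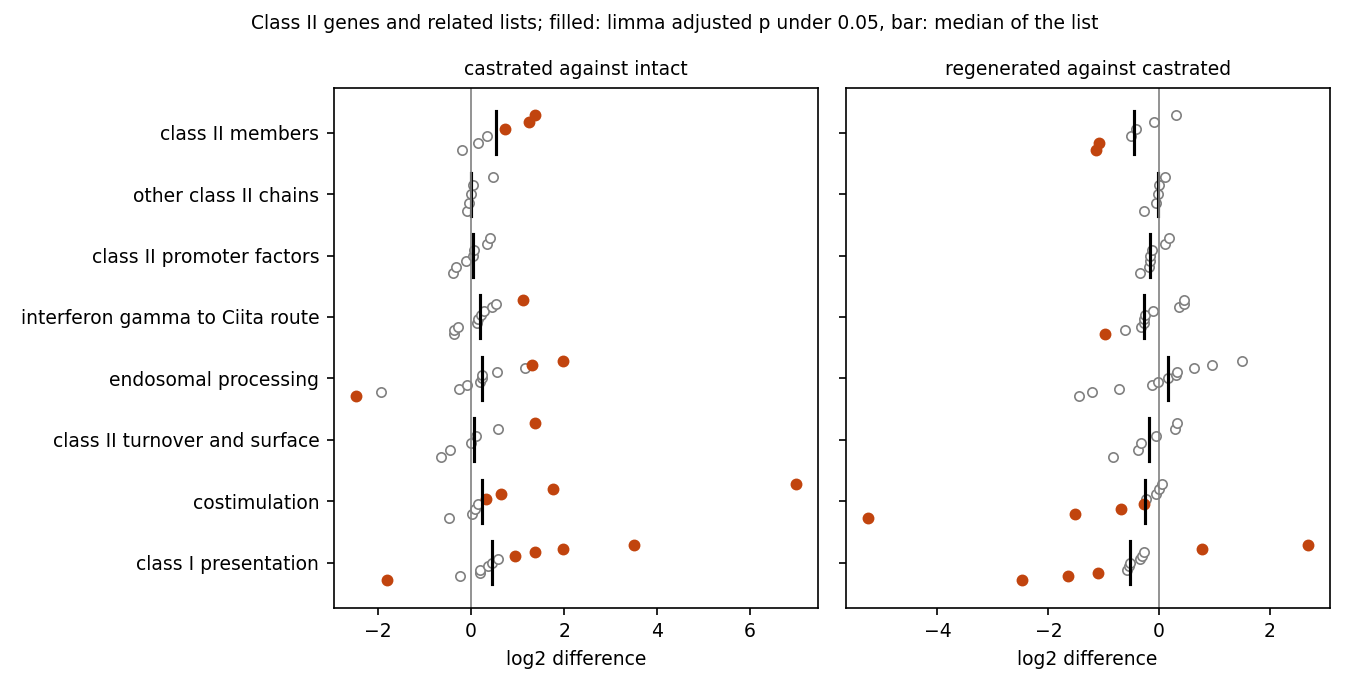
Log2 difference (horizontal axis) of each measured gene in the class II members and 7 related lists (rows), castrated against intact on the left and regenerated against castrated on the right; filled points passed limma's test and black bars are list medians. The class II members have a median of 0.53 on the left and -0.46 on the right, and no promoter factor is filled on either side.

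Leukocytes that present antigen carry far more class II than epithelium, so their markers are given beside the class II values. Ptprc, the gene of the CD45 gate, read 3.55 to 3.76 over the 10 arrays, and Adgre1, which encodes the macrophage antigen of the sort, 3.67 to 3.93, both under the background limit. Itgam, the gene of the CD11b gate, read 3.86 to 4.42, also under the limit, and rose in castrated arrays by 0.38 ± 0.08 log2 (limma adjusted p = 0.0181). Removal of intact replicate 1 or 2 (0.0848 and 0.0755) or castrated replicate 2 (0.0667) ended that call, and so did centring of the array medians (0.29, adjusted p = 0.0691).

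Of 19 macrophage and monocyte markers measured, 3 rose after castration (Itgam, Cd14 and Aif1) and 0 fell, and 10 were under the background limit in every array. Of all genes 4.82% rose and 3.19% fell. Cd14, a lipopolysaccharide coreceptor gene, rose by 1.95 ± 0.35 log2 (limma adjusted p = 0.00798). Aif1, a gene of macrophage cytoskeleton, rose by 0.96 ± 0.21 (0.0179), a call that ended after removal of intact replicate 1 or 2 (0.0817 and 0.0652) or castrated replicate 2 (0.06). Its intact values were all under the background limit. With values raised to that limit the rise was 0.54 and uncalled (0.0907), and with only these groups fitted it was uncalled as well (0.0507). Between regenerated and castrated arrays Aif1 was the 1 marker of the 19 called, lower in regenerated arrays, and 0 were higher. Of all genes 3.01% were called lower there and 1.97% higher. The mean log2 level of the 19 markers ranged over 4.40 to 4.59 in intact, 4.71 to 5.11 in castrated and 4.49 to 5.10 in regenerated arrays. Their summed linear level ranged over 652.5 to 1106.2, 1128.0 to 1801.8 and 907.5 to 3440.5. Such a sum follows its highest genes, and in every regenerated array the highest of these markers was Ly6c2. Ly6c2 read 6.81 to 8.15 in intact, 7.25 to 9.39 in castrated and 8.69 to 11.39 in regenerated arrays, and was not called in any comparison. Of 11 dendritic cell markers 0 were called and 4 had an unadjusted p under 0.05, with a mean log2 level of 4.07 to 4.15, 4.22 to 4.37 and 4.12 to 4.26 and summed linear levels of 218.7 to 229.3, 245.1 to 291.8 and 222.1 to 249.4. Of those 11, 7 were under the limit in every array. Of 9 B cell markers 0 were called between castrated and intact arrays, with 0 at an unadjusted p under 0.05, and 8 were under the limit in every array. The mean levels of the macrophage and dendritic lists were thus higher in every castrated array than in every intact array, as were the classical class II genes. The same held for the T cell, luminal, basal, and endothelial and stromal lists. The mean log2 level was 4.19 to 4.56 in intact and 4.61 to 4.91 in castrated arrays for 8 T cell markers. Their median difference was -0.02 log2, while Cd3e of that list differed by 3.39 ± 0.93 log2 (limma adjusted p = 0.0507). For 6 luminal epithelial markers the mean level was 14.42 to 14.69 in intact and 14.84 to 15.2 in castrated arrays. It was 5.79 to 5.95 and 6.31 to 6.49 for 4 basal epithelial markers, and 3.87 to 3.91 and 3.98 to 4.03 for 7 endothelial and stromal markers. Of these, limma called 0 T cell, 3 luminal, 1 basal and 0 endothelial or stromal markers higher. It called 1 luminal marker, Hoxb13, lower. The part of any of these lists in the class II result was not tested.

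Single arrays differed in myeloid genes. The lysozyme gene Lyz2 was highest in intact replicate 3 (6.59), castrated replicate 1 (6.52) and regenerated replicate 2 (7.43), against 4.09 to 4.65 in the other 7 arrays. Tyrobp, a signalling adaptor of myeloid cells, was highest in castrated replicate 1 (6.12) and regenerated replicate 2 (4.93). The same arrays had the highest H2-Aa and H2-Ab1 of their groups. Lyz2 and Tyrobp are among the 19 macrophage and monocyte markers, and other markers did not follow in every group. Aif1 was lowest of the castrated arrays in replicate 1 (4.78, against 5.35 and 5.78). Cd68 was lowest of the intact arrays in replicate 3 (6.92, against 8.58 and 9.31). In its other groups, each of these genes was highest in the array of highest Lyz2. The 3 arrays of highest Lyz2 were left out together, an alternative chosen after the data had been seen. H2-Aa then rose by 1.30 ± 0.18 and H2-Ab1 by 1.12 ± 0.16 log2 after castration (limma adjusted p = 0.02 and 0.021). They fell by 1.07 and 1.16 after testosterone (0.0354 and 0.0203), while H2-Eb1 lost its call (0.72, adjusted p = 0.182). Fewer arrays were fitted here, and other genes lost their calls with differences close to those of all arrays. After castration these were Ctss (1.98, adjusted p = 0.0699), Cst3 (1.31, 0.0653), Cd9 (1.52, 0.0582), Sppl2a (-2.47, 0.0874), Itgam (0.43, 0.0872), Cd14 (1.63, 0.0588), Cd274 (0.70, 0.0616), Cd40 (0.34, 0.106), Hoxb13 (-2.72, 0.066) and Cd24a (1.83, 0.0584). After testosterone they were Icam1 (-1.37, 0.0571), Psmb9 (-1.24, 0.0746), Cd274 (-0.75, 0.0571), Cd40 (-0.32, 0.146) and Hoxb13 (1.79, 0.206). Calls were also lost with smaller differences by Krt8 after castration (0.90, 0.215) and Cd3e after testosterone (-3.38, 0.163). Leaving out the arrays of highest Lyz2 did not remove all differences in myeloid genes. The kept castrated arrays read 4.12 and 4.51 for Tyrobp and 5.35 and 5.78 for Aif1. The kept intact arrays read 3.64 and 3.53, and 4.22 and 4.34. Cd68 overlapped, at 9.13 and 7.92 against 8.58 and 9.31. The part of leukocytes in the class II rise was not tested by this fit. In bulk samples such as these, a few cells with much class II and many cells with little cannot be told apart.

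**Figure D4:**
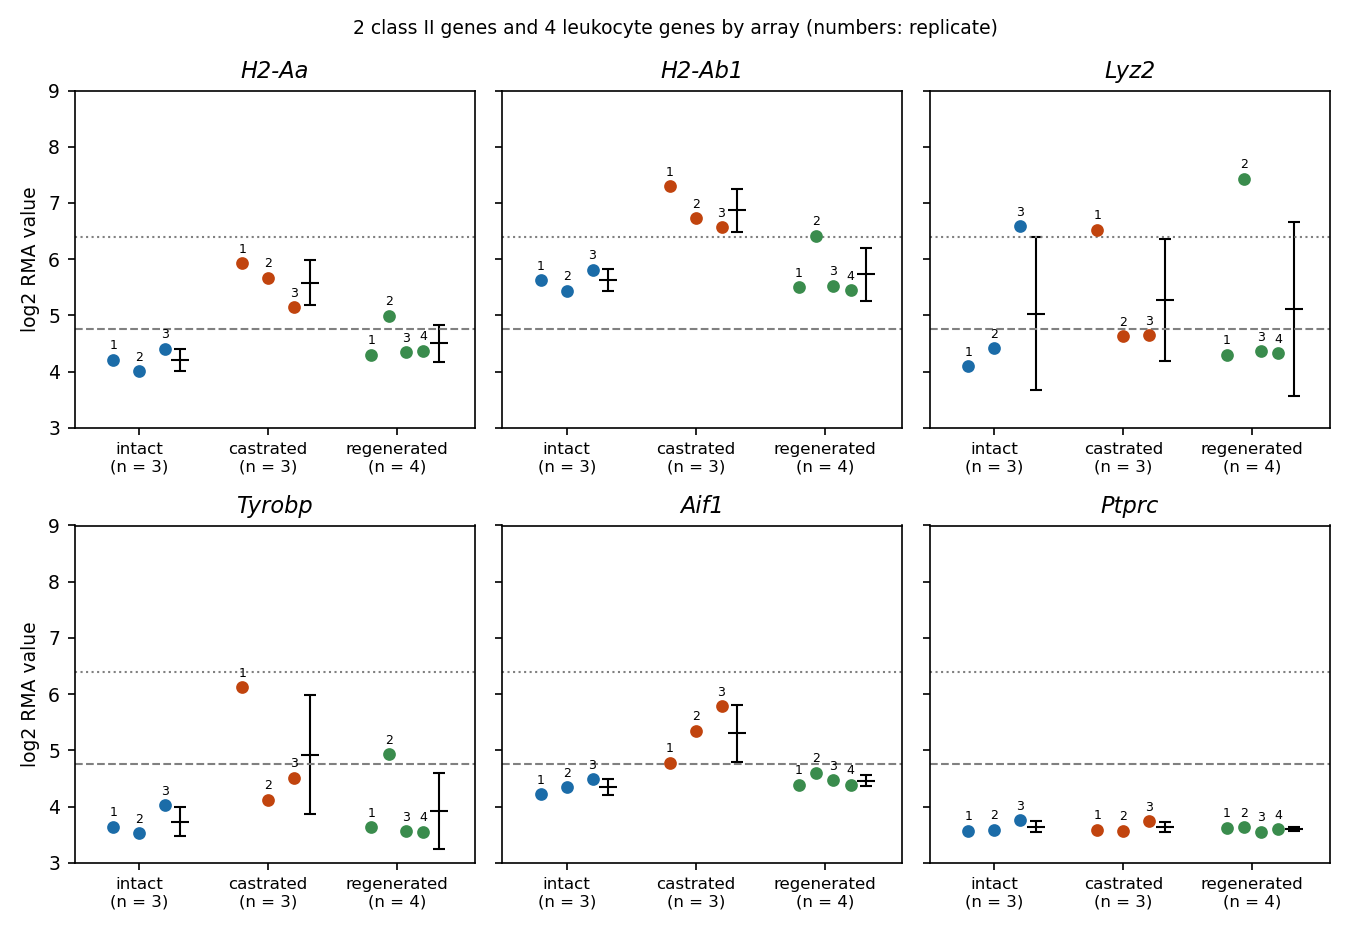
Log2 RMA value (vertical axis) of H2-Aa, H2-Ab1 and the leukocyte genes Lyz2, Tyrobp, Aif1 and Ptprc in each array by group (horizontal axis), with replicate numbers, mean ± SD, and the background limit of 4.76 (dashed) and highest background value of 6.40 (dotted). Lyz2 stands high in 1 array of each group, and Ptprc lies at 3.55 to 3.76.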

How the data were processed

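RNA of the 10 samples (integrity number at least 9, per the labels) was measured on Affymetrix ClariomD arrays, 1 per sample. The authors deposited log2 values for 72688 rows. The submitters' processing notes name RMA and Affymetrix Expression Console, with no version; no genome build is given in the sources used here. Quantile scaling within RMA can shrink a shift shared by most transcripts. Rows were named through GEO's platform annotation, with 827 symbols updated through RefSeq (GRCm38.p6, names only); 30604 rows had 1 symbol, 2146 several and 33206 none. The highest-mean row was kept for 355 genes with several rows, leaving 30142 genes.

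The model was limma's (version 3.58.1, R 4.3.3; lmFit and eBayes, prior variance following mean level, all 10 arrays, 3 groups, 7 residual degrees of freedom), two-sided, with Benjamini-Hochberg adjustment over all genes. The scripts were tested on simulated data. Members and gene lists were chosen with earlier results of these data known. Genes named are all members; per list and comparison, up to 4 called genes with the largest difference or the 2 largest where none passed; fixed sort and epithelial genes; and the 3 genes most like each member by Pearson r, among genes with a standard deviation of at least 0.5 and a group mean above the highest background value. Leukocyte genes besides the sort genes were named after their values were seen. Alternatives changed 1 choice at a time: the trend, array weights, a replicate block, the groups fitted, filters and a floor at the background limit, the row per gene, normalization, and each array left out. They were computed for the gene and comparison pairs named, a limit set after a first run in which most sign changes were small, uncalled values.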

Additional observations from a re-analysis of the deposited data

Results flagged for a closer look

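The transcript cluster TC1800000617.mm.1 is annotated with 2 symbols, Cd74 and the microRNA Mir5107, and belongs to no gene in the comparisons above. It read 5.92, 5.72 and 7.03 in intact replicates 1 to 3, 12.87, 14.35 and 10.94 in castrated replicates 1 to 3, and 6.19, 9.64, 6.02 and 5.92 in regenerated replicates 1 to 4. Its lowest castrated value, 10.94, was above its highest intact value. When all 65956 non-control rows were fitted with limma, it rose by 6.50 ± 1.05 log2 after castration (adjusted p = 0.00895) and fell by 5.78 ± 0.99 after testosterone (adjusted p = 0.0153), and its difference between regenerated and intact arrays was 0.72 ± 0.99 (adjusted p = 0.933). Which of the 2 annotated genes its probes read was not tested. Over the 10 arrays it had a Pearson r of 0.97 with H2-Aa and 0.945 with H2-Ab1.

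In 9 of 59 features looked at, 1 of the 4 regenerated arrays stood far from the other 3, which chance gives in about 1 of 20 groups. The features run together across arrays, and some were picked for their likeness to a member. The same array can thus be counted several times, and the count cannot be compared with that rate. Regenerated replicate 2 was high for H2-Aa (4.99), H2-Ab1 (6.42) and TC1800000617.mm.1 (9.64), and it also held the highest Lyz2 of all arrays (7.43). Regenerated replicate 4 was high for Ciita (3.82), Trpm3 (7.52) and Ctse (8.62) and low for Sppl2a (8.22) and Gins1 (5.55). Regenerated replicate 1 was high for Psmb9 (7.50).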

How the results depend on the processing

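In castrated against intact arrays the count of class II genes called was 3, and 1 when only genes above the background limit were tested, which leaves 3 of the 6 genes. It was 1 to 3 when 1 array was left out. In regenerated against castrated arrays it was 2, then 1 above the background limit, 1 with every non-control row, 1 with array medians centred and 0 with only the castrated and regenerated arrays fitted, and it was 0 to 2 when 1 array was left out. In regenerated against intact arrays it was 0 in every alternative run.

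Replicate numbers recur across groups. Same-numbered arrays correlated between -0.182 and 0.316 in their deviations from the group means, and differently numbered arrays between -0.357 and 0.278. These ranges overlap widely, and they do not settle whether equal numbers mark a shared batch. With the replicate block 3 class II genes were called in castrated against intact arrays, 0 in regenerated against castrated arrays (H2-Aa adjusted p = 0.0628, H2-Ab1 0.1), and 4 of all genes in regenerated against intact arrays. With the block H2-Ea was called higher in castrated than in intact arrays (0.0442).

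Over all genes, 2414 were called in castrated against intact arrays, 4258 with array weights, 910 without the 3 arrays of highest Lyz2 and 1019 to 3271 when 1 array was left out. In regenerated against castrated arrays 1500 were called, 822 with only those groups fitted, 426 without the 3 arrays of highest Lyz2 and 816 to 2127 when 1 array was left out. In regenerated against intact arrays 11 were called, then 2 without the trend, 70 with array weights, 0 with only those groups fitted, 20 above the background limit, 6 with the floor, 0 with every non-control row, 3 with medians centred, 1 with quantile normalization, 0 without the arrays of highest Lyz2 and 0 to 78 when 1 array was left out.

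Some uncalled differences changed sign, all with both values uncalled. In castrated against intact arrays, array weights gave 0.21 for H2-DMb1, 0.14 for H2-DMb2 and 0.00 for Ptprc, centring gave -0.05 for Adgre1, and leaving out the arrays of highest Lyz2 gave 0.19, 0.09 and 0.08 for H2-DMb1, H2-DMb2 and Ptprc. Leaving out 1 array gave -0.64 to 0.33 for H2-DMb1, -0.35 to 0.24 for H2-DMb2, -0.10 to 0.73 for H2-DMa, -0.05 to 0.06 for Ptprc and -0.01 to 0.13 for Adgre1. In regenerated against castrated arrays, centring gave 0.01 for Ptprc, and leaving out 1 array gave -0.12 to 0.61 for H2-DMb1, -0.14 to 0.27 for H2-DMb2, -0.06 to 0.02 for Ptprc and -0.08 to 0.01 for Adgre1. In regenerated against intact arrays, centring gave -0.01 for Ciita, leaving out the arrays of highest Lyz2 gave -0.04 for H2-Ab1, and leaving out 1 array gave -0.34 to 0.63 for H2-DMb1 and -0.13 to 0.19 for H2-Ab1. The cause of these moves was not tested.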

Other observations

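Of the T cell and B cell markers, 1 gene of each list was called between regenerated and castrated arrays, against 4.98% of all genes. Both were named after their values were seen. Cd3e, a subunit gene of the T cell receptor complex, read 7.58, 8.18 and 5.40 in intact arrays, 11.32, 11.76 and 8.26 in castrated arrays and 5.73 to 7.38 in regenerated arrays. Castrated and intact arrays did not overlap, and the difference of 3.39 ± 0.93 log2 was just short of the threshold (limma adjusted p = 0.0507) and was called in 6 of 22 alternative fits. Regenerated against castrated arrays showed a fall of 4.04 ± 0.87 log2 (limma adjusted p = 0.0253). That call ended after removal of castrated replicate 1 or 2 (0.0886 and 0.103) or regenerated replicate 2 or 3 (0.0751 and 0.0674), and without the 3 arrays of highest Lyz2 (-3.38, adjusted p = 0.163). The genes of its partner subunits, Cd3d and Cd3g, read 3.93 to 4.22 and 4.15 to 4.79. Cd4, the coreceptor gene of the T cells that recognise class II, read 3.56 to 3.87, under the background limit in every array. The B cell scaffold gene Bank1 read 4.15 to 4.41 in intact arrays, 4.16 to 4.27 in castrated arrays and 4.99 to 5.31 in regenerated arrays. It rose by 0.93 ± 0.10 log2 in regenerated against castrated arrays (limma adjusted p = 0.000823) and was called in each of 21 alternative fits. Its castrated and intact values were all under the background limit, and with values raised to that limit the rise was 0.38. Against intact arrays it rose by 0.82 ± 0.10 (adjusted p = 0.0477), a call kept in 5 of 21 alternative fits, with adjusted p = 0.0123 to 0.277 over them, while the other 8 B cell markers measured stayed under the background limit in every array.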
